A study of Mus musculus with 12 samples.

Results

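The neurotrophin and GDNF genes of the septum were described here in lactating and virgin mice, as 8 genes chosen by name: the ligands Bdnf, Ntf3 and Gdnf and the receptors Ntrk2, Ntrk3, Gfra1, Gfra2 and Ret. Transcript clusters, the gene-level units of the array, were matched by gene symbol through the probe annotation used here, and 7 of the 8 genes were matched among the 35556 clusters measured. Each of the 7 was read from 1 cluster. Ntf3 was not matched in that annotation and was not analysed here, which does not say whether the array measures it. RNA was hybridized to whole-transcript mouse gene arrays, 1 array for each of 12 mice, with 6 lactating and 6 virgin animals and no pooling. All mice were adult outbred females of a line bred from hsd:ICR stock for high maternal aggression, and the groups were matched for age. Lactating females had first been housed with a breeder male and were sampled between postpartum days 6 and 8. Virgin females had lived with other females before single housing, and their estrous stages, which were mixed, are not known for each mouse here. The sources name the tissue differently, as the whole septum in the methods and as lateral septum in the sample protocol.

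Neurotrophins are secreted proteins that keep neurons alive and tune their synapses. BDNF acts through the receptor kinase TrkB, encoded by Ntrk2, and NT-3, encoded by Ntf3, acts mainly through TrkC, encoded by Ntrk3, while both can also bind the p75 receptor encoded by Ngfr. GDNF binds the membrane-anchored co-receptor encoded by Gfra1, its relative neurturin prefers the one encoded by Gfra2, and both complexes signal through the receptor kinase RET. Kinases of either family drive the ERK cascade, which switches on transcription factor genes and its own feedback inhibitors. The septum sits between the hippocampus and the hypothalamus, and its cholinergic neurons are a classic target of neurotrophins.

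The control regions of Bdnf and Gdnf are shown because transcription factor CREB, a known driver of Bdnf, reads a short element there. RefSeq (GRCm38.p6) gave 13 start regions for 5 of the 8 genes, each reaching from 250 bases before to 50 bases after the start. The letters TGACGT on either strand, the core of the CREB element, stood in 2 of the 13 regions, against 7.51% of 32851 regions of all genes. The longer TCACGTCA on either strand, which contains the core, stood in 1 of the 13 and in 0.441% of all regions. Both regions with a match are printed 5′ to 3′ with the matched letters in capitals, Bdnf at chr2:109692186-109692485 and Gdnf at chr15:7809798-7810097, each on the plus strand. The match began 38 bases before the start of Bdnf and 51 bases before that of Gdnf. A match is a description of letters, and the single cluster of each gene does not tell its start sites apart.
Bdnf: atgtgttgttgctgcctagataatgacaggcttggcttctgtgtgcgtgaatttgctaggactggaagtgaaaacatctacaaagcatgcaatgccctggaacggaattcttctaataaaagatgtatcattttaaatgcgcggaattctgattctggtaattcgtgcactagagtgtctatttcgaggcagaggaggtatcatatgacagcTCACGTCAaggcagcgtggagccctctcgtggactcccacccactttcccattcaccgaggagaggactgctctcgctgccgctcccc
Gdnf: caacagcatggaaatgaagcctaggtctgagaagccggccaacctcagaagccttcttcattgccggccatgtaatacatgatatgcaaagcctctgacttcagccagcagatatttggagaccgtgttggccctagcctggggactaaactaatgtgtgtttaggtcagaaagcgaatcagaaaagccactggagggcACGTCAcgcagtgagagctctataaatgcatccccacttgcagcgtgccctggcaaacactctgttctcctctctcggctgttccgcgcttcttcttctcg

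Among all 35556 clusters, 1160 were higher in lactating mice at an unadjusted limma p under 0.05 (3.26%) and 1668 were lower (4.69%). No cluster passed after Benjamini-Hochberg adjustment in limma (0%), where the smallest adjusted p was 0.0715. The 6 lactating arrays lay wholly above or wholly below the 6 virgin arrays in 140 clusters (0.394%). The split of calls moved with the scaling and with the log2 step. Of all calls, 41.0% were higher in the main fit, on log2 values with the deposited scaling. The share was 67.1% after subtracting array medians (2027 higher, 992 lower), 52.2% after quantile normalization (1300 higher, 1191 lower) and 54.3% after cyclic loess (1340 higher, 1129 lower). It was 55.2% on linear intensities (1569 higher, 1274 lower) and 69.3% among clusters above the median intensity (1138 higher, 504 lower). Array medians lay between 320 and 339 intensity units and pairs of arrays correlated at 0.987 to 0.994. Septal markers ran from bright to near the array median. Zic2 lay between 4334 and 5439 in lactating and between 4478 and 5301 in virgin mice. Esr1 lay between 320 and 366 in lactating and between 293 and 367 in virgin mice, above the array median on 9 of 12 arrays. None of the 8 septal markers passed the test. Of 9 excitatory cortical markers 1, Nrn1, was higher, and lactating mouse 4 stood apart in that list, at 1.03 log2 units above the average array, whereas virgin mice lay between −0.37 and 0.23. In that mouse Slc17a7, the vesicular glutamate transporter of cortical neurons, read 3722, and on the remaining arrays it read at most 1163. Lactating mouse 1 was lowest in the excitatory cortical list, at −0.48. Of 6 microglial markers 2, Cx3cr1 and P2ry12, were lower, of 4 ependymal markers 1, Ccdc153, was lower, and of 5 choroid plexus markers 1, Clic6, was higher. None was called among 5 striatal, 8 astrocyte, 7 oligodendrocyte, 3 oligodendrocyte precursor and 5 endothelial markers. All 5 striatal differences were negative, between −0.23 and −0.08 log2 units, and lactating mouse 4 was lowest in that list, at −0.48.

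Of the 7 genes, 1 rose in lactating mice and none fell at an unadjusted p under 0.05 in limma. The riser was Ret, the kinase shared by the GDNF family receptors, whose mean was 12.7% higher. Bdnf, Ntrk2, Ntrk3, Gdnf, Gfra1 and Gfra2 did not pass the test, with differences of means between −4.65% for Bdnf and 6.54% for Gfra2. At the share of clusters called in either direction 0.557 of 7 genes would be expected to pass, so 1 call is near the background. The median log2 difference of the 7 was 0.01, with 4 positive and 3 negative, beside −0.01 over all clusters. In bulk tissue, fewer cells of a type and less RNA per cell cannot be told apart.

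**Figure D1:**
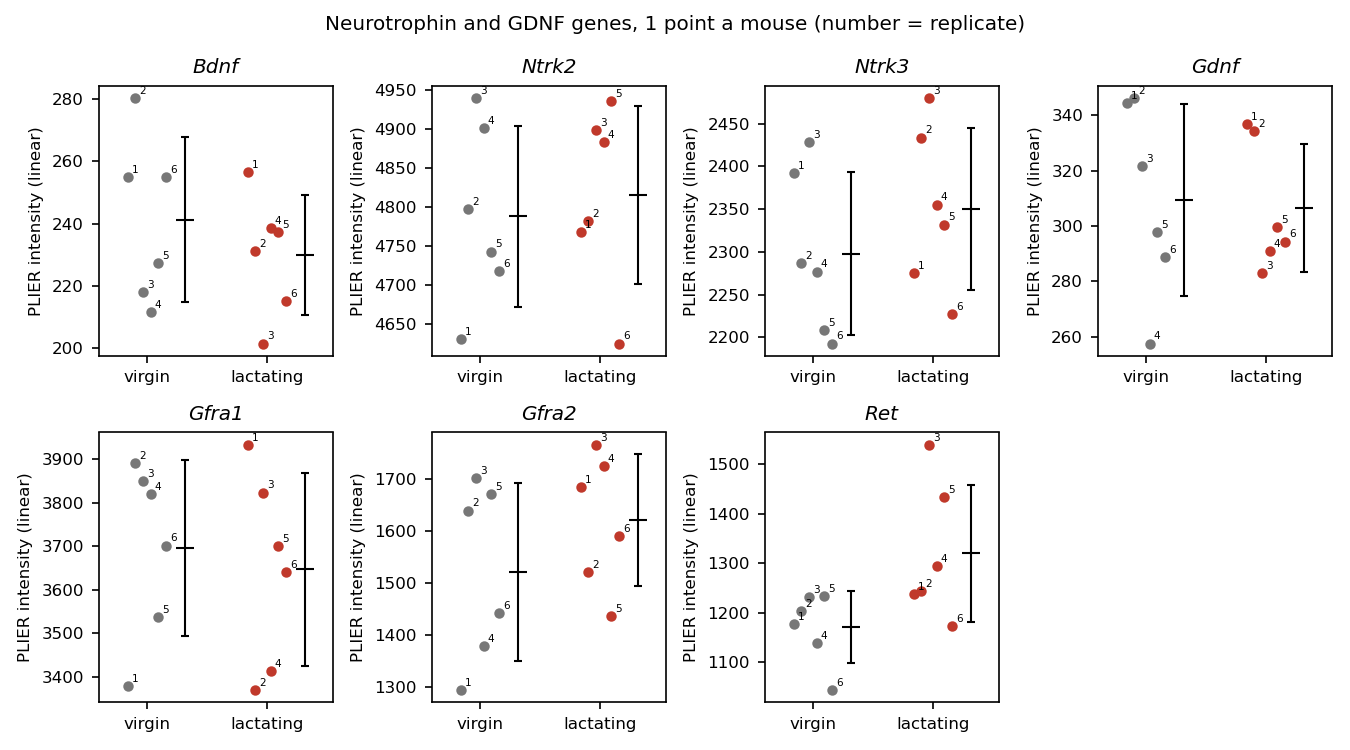
Hybridization intensity of the 7 genes, 1 panel a gene with its own axis, 1 point a mouse numbered by replicate, and a bar for the group mean with its SD (n = 6). The groups overlap in every panel, and for Ret 5 of the 6 lactating mice lie above every virgin mouse.

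Bdnf is the ligand of TrkB and is made mainly by active neurons. It ran from 202 over a median of 234 to 256 in lactating mice, and from 212 over 241 to 280.2 in virgin mice. Both ranges overlapped almost wholly, with virgin mouse 2 highest and lactating mouse 3 lowest. The means were 230.0 ± 19.3 and 241 ± 26.5 (SD, n = 6 each), a log2 difference of −0.06 with a 95% interval of −0.22 to 0.09 in limma (p = 0.408, Benjamini-Hochberg adjusted p = 0.778, exact permutation p = 0.435). The interval spans −14.0% to 6.76%. Bdnf was dim, below the array median on all 12 arrays. The 3554 clusters within 5 percentile points of its brightness had a median log2 difference of −0.05, and 7.74% of them were lower and 1.83% higher. Their median on each array and Bdnf correlated at 0.859 over the 12 arrays, both highest in virgin mouse 2 and lowest in lactating mouse 3.

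Ntrk2 encodes TrkB, in a full-length form with a kinase and in truncated forms common in glia, which its single cluster does not separate. Its intensity ran from 4625 over 4833 to 4936 in lactating mice and from 4631 over 4770.2 to 4939.6 in virgin mice. The ranges all but coincided. The means of 4816 ± 115 and 4788 ± 116 (SD, n = 6 each) gave a log2 difference of 0.01, with a 95% interval of −0.06 to 0.08 (limma p = 0.800, exact permutation p = 0.680). In percent the interval was −4.10% to 5.46%, the narrowest of the 7.

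Ntrk3 encodes TrkC, the main receptor of NT-3. It ran from 2227 over 2344 to 2479.7 in lactating mice and from 2193 over 2282 to 2428 in virgin mice. Lactating mice 2 and 3 lay above every virgin mouse and the rest overlapped. The log2 difference was 0.03 with a 95% interval of −0.05 to 0.12 (limma p = 0.425, exact permutation p = 0.346), or −3.62% to 8.57%. The means were 2351 ± 94.6 and 2298 ± 95.4 (SD, n = 6 each).

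Gdnf, a survival factor for dopamine and motor neurons, ran from 283 over 297 to 337 in lactating mice and from 257 over 309.7 to 346 in virgin mice. Every lactating value lay inside the virgin range. The means were 307 ± 23.2 and 309 ± 34.6 (SD, n = 6 each), and the log2 difference was −0.01 with a 95% interval of −0.16 to 0.15 (limma p = 0.908, exact permutation p = 0.892). Gdnf was above the array median on 4 of 12 arrays. Its sign turned positive, at 0.01 to 0.02, after median subtraction, quantile normalization or cyclic loess.

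Gfra1 encodes the co-receptor that GDNF binds first. It ran from 3370.1 over 3671 to 3932 in lactating mice and from 3379 over 3761 to 3891 in virgin mice, with no order between the groups. The means were 3647 ± 222 and 3697 ± 201 (SD, n = 6 each), and the log2 difference was −0.02 with a 95% interval of −0.13 to 0.09 (limma p = 0.698, exact permutation p = 0.682). In percent the interval was −8.51% to 6.33%.

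Gfra2 encodes the co-receptor preferred by neurturin. Its intensity ran from 1436 over 1638 to 1766 in lactating mice and from 1294 over 1541 to 1702.5 in virgin mice. Lactating mice 3 and 4 lay above every virgin mouse and virgin mice 1 and 4 below every lactating mouse. The means of 1621 ± 127 and 1521 ± 172 (SD, n = 6 each) gave a log2 difference of 0.09 with a 95% interval of −0.07 to 0.26 (limma p = 0.238, exact permutation p = 0.266). The interval, −4.79% to 19.7%, was the widest of the 7 and did not leave out a change of the size read for Ret.

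Ret encodes the kinase that turns ligand binding at either co-receptor into a signal inside the cell. In lactating mice 1 to 6 it read 1238, 1244, 1539, 1293, 1433 and 1174. In virgin mice 1 to 6 it read 1177, 1203, 1231, 1139, 1234 and 1044. Lactating mice 3 and 5 were highest, 5 of 6 lactating mice lay above every virgin mouse, and lactating mouse 6 lay among the virgin values. The means were 1320.1 ± 138 and 1171 ± 71.8 (SD, n = 6 each), a log2 difference of 0.17 (SE 0.0669) with a 95% interval of 0.02 to 0.31 in limma, or 1.52% to 24.1%. The unadjusted limma p was 0.0274, the 1560th smallest of 35556, and the Benjamini-Hochberg adjusted p was 0.619. An exact two-sided permutation test over the 924 assignments of mice gave p = 0.0281. Clusters of like brightness had a median log2 difference of 0.03, which leaves 0.14 for Ret, and 6.98% of them were higher and 1.35% lower. Their median on each array and Ret correlated at 0.599 over the 12 arrays, both highest in lactating mouse 3, and the part of brightness in the difference was not tested.

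The call for Ret rested on single mice. It missed the threshold in limma without lactating mouse 3, where the log2 difference was 0.12 (SE 0.0587), without lactating mouse 5 (0.14, SE 0.0693) and without virgin mouse 6 (0.13, SE 0.0661). It held when any one of the remaining 9 mice was left out, lactating mouse 4 with its high cortical markers among them (0.17, SE 0.0731). Lactating mouse 3 also had the highest average level of the 8 septal markers, 0.10 log2 units above the average array. Virgin mouse 3 and lactating mouse 1 were close to it (0.09 each), and lactating mouse 5 lay at −0.02. Virgin mouse 6 had the lowest levels of the 5 cholinergic markers (−0.26) and the 3 parvalbumin markers (−0.26). None of these 16 markers was called. All 5 cholinergic and all 3 parvalbumin differences were positive, with medians of 0.03 and 0.14 log2 units. Of the 8 septal differences 6 were positive and 2 negative, with a median of 0.02. Summed intensities ran from 26273 to 29425 in lactating and from 25499 to 28476 in virgin mice for the septal list, from 3204 to 4078 and from 2934 to 4190.2 for the cholinergic list, and from 2611 to 2952 and from 2287 to 2925 for the parvalbumin list. The part of these cell type lists in the difference of Ret was not tested.

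**Figure D2:**
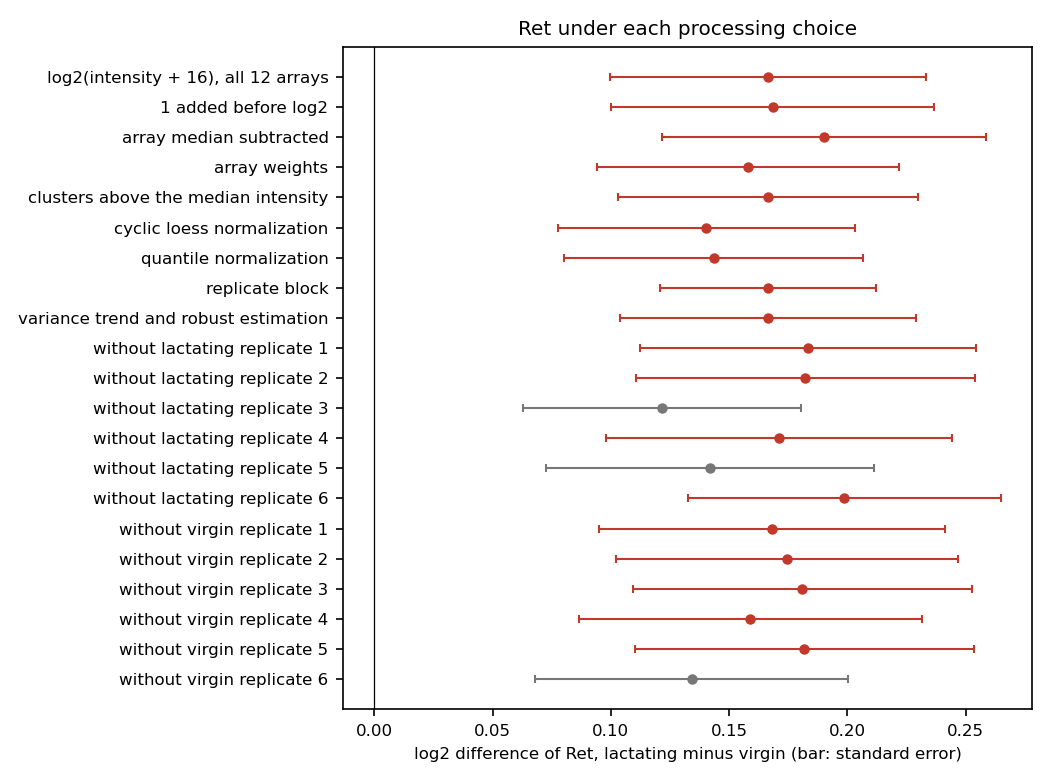
Log2 difference of Ret, lactating minus virgin, with its standard error, under each processing choice and with each mouse left out, on the log2 scale; red points have an unadjusted limma p under 0.05 and grey points do not. All points lie between 0.12 and 0.20, and 3 of them are grey, those without lactating mouse 3, lactating mouse 5 or virgin mouse 6.

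The arrays on which each gene was high or low were set against those of 12648 clusters above the median brightness with 1 other gene symbol, by Pearson correlation over the 12 arrays, which share their brightness and scaling. Ret was most like Cars2 (0.903), Rhot1 (0.903) and Cracd (0.892). Bdnf was most like Nhlrc1 (0.967), Nrtn (0.966) and Krt88 (0.963). Ntrk2 was most like Zfp871 (0.927), Myo9a (0.926) and Rb1cc1 (0.918), and Ntrk3 most like Hectd4 (0.903), Mtus2 (0.900) and Unc80 (0.898). Gdnf followed Hmx1 (0.875), Sec61b (0.857) and Hoxd3 (0.839), Gfra1 followed Rmi1 (0.910), Pacsin2 (0.873) and Chst2 (0.848), and Gfra2 followed Kif5c (0.869), Ing2 (0.866) and Snap29 (0.847). No test goes with these values, which describe the 12 arrays.

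Beyond the 7 genes, 59 further genes of the pathway were listed by role and 55 were measured. Of these, 6 were higher in lactating mice and 1 was lower at an unadjusted limma p under 0.05, with a median log2 difference of 0.02, against 3.26% and 4.69% of all clusters. The ligand list gave 0 calls in 4 measured genes. The second ligand of TrkB, Ntf5, had a log2 difference of −0.05 (limma p = 0.534, exact permutation p = 0.563) and Nrtn, which encodes neurturin, −0.06 (limma p = 0.454, exact permutation p = 0.494). The receptor list gave 0 calls in 9 measured genes, among them Ngfr, the p75 receptor, with 0.01 (limma p = 0.870, exact permutation p = 0.872), whose sign turned after quantile normalization and cyclic loess (−0.01 each). Proneurotrophin processing and sorting genes gave 0 calls in 8. Genes that BDNF is known to induce in neurons gave 0 calls in 6. These were Vgf, Arc, Egr1, Fos, Homer1 and Nptx2, with log2 differences between −0.02 and 0.05. Nrn1, which BDNF can also induce, was listed as an excitatory cortical marker instead and was called higher. Its log2 difference was 0.46 (limma p = 0.0373, exact permutation p = 0.00866), and lactating mouse 4, high in cortical markers, was highest at 1461.

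**Figure D3:**
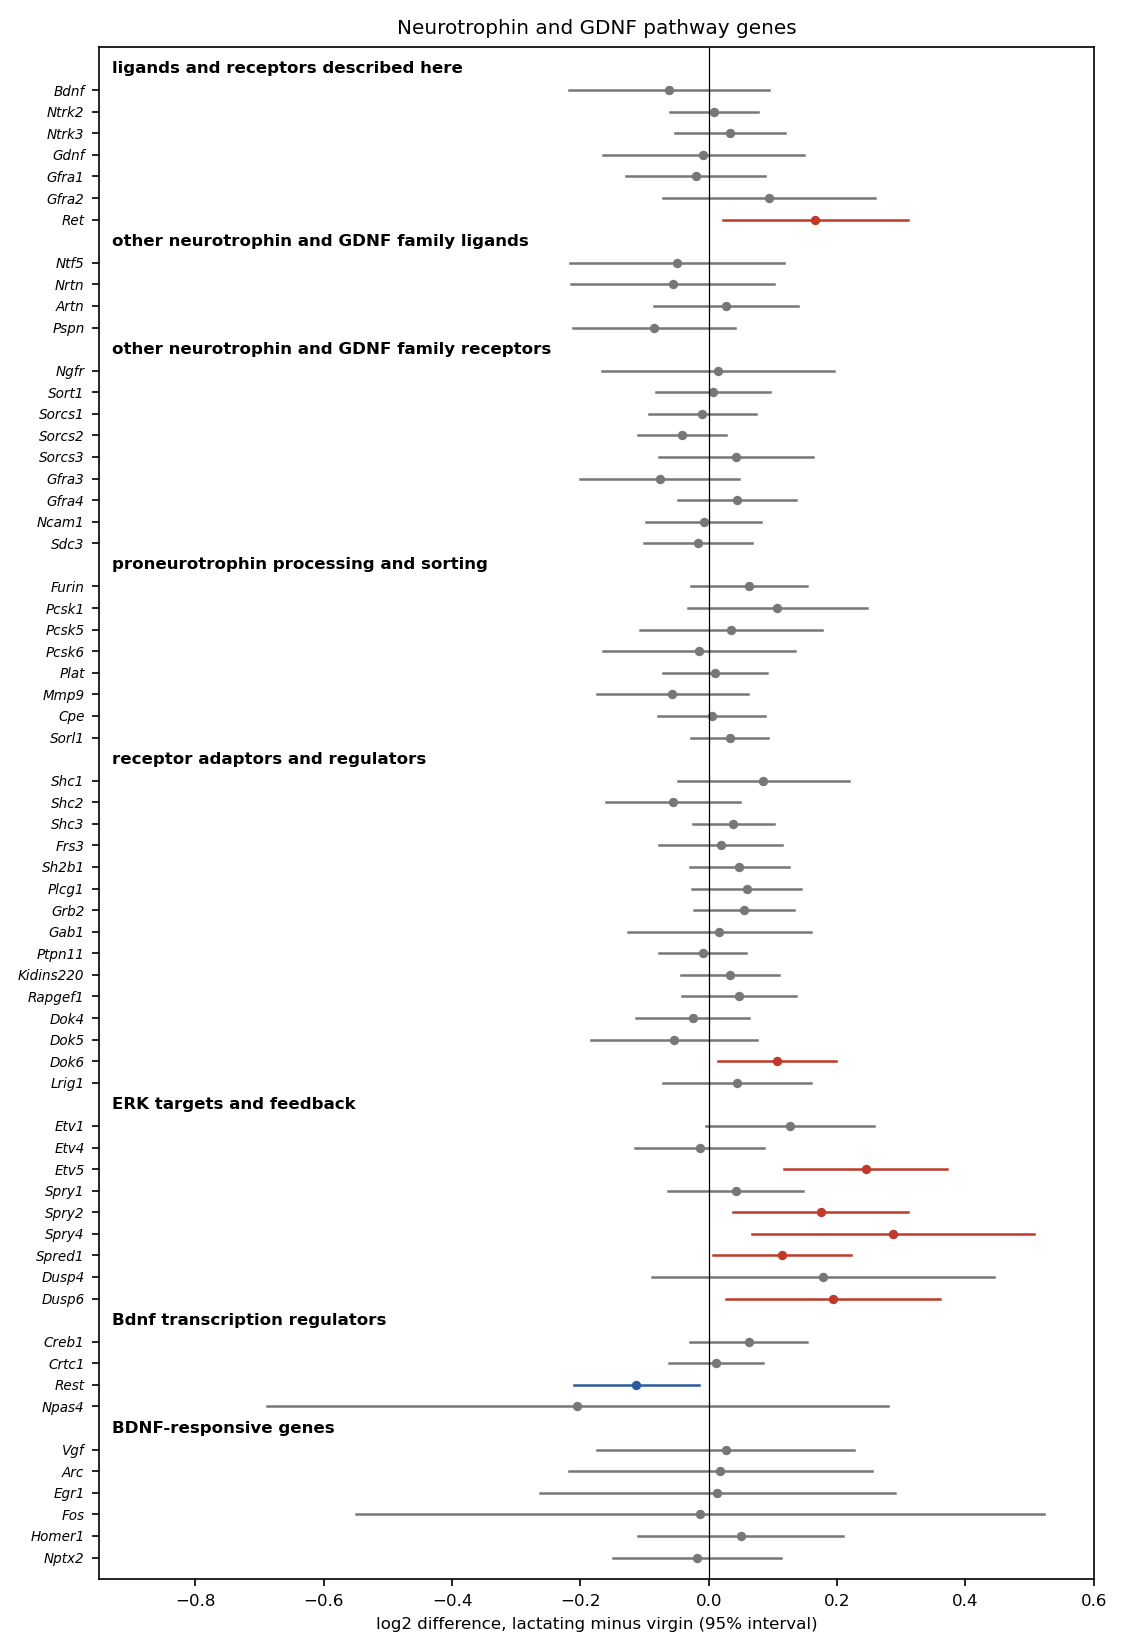
Log2 difference, lactating minus virgin, with its 95% limma interval for the 7 genes and 55 further pathway genes, grouped by role; red marks genes higher and blue genes lower at an unadjusted limma p under 0.05. Of the further genes 6 are red and 1 is blue, and 5 of the red ones lie in the ERK list.

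The ERK targets and feedback genes, a list chosen with earlier results of these data known, held most of the calls. Of 9 measured, 5 rose and none fell, Etv5, Spry2, Spry4, Spred1 and Dusp6, and 8 of the 9 differences were positive, with a median of 0.17. Over all clusters 3.26% were higher, and among clusters of like brightness the share higher was 6.84% for Etv5, 4.16% for Spry2, 4.45% for Spry4, 5.68% for Spred1 and 5.99% for Dusp6. ERK is driven by many receptors besides these, and none of the 5 passed adjustment in limma. Etv5, an ERK-induced transcription factor gene, was also among the genes the study singled out on these same arrays, so its call is no independent evidence.

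In lactating mice 1 to 6 Etv5 read 1209, 1067, 1028, 1042, 946 and 932. In virgin mice 1 to 6 it read 923, 819, 859.7, 895, 874 and 852. The groups did not overlap, which was so for 0.394% of all clusters. The means were 1037 ± 99.8 and 870.4 ± 35.8 (SD, n = 6 each), a log2 difference of 0.24 (SE 0.0587, limma p = 0.00114, Benjamini-Hochberg adjusted p = 0.619, exact permutation p = 0.00216). That permutation p is the smallest possible with 6 mice in each group. A dimmer second cluster of Etv5 had a log2 difference of 0.22 and also passed the unadjusted threshold.

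Spry4 and Spry2 encode Sprouty proteins, which dampen signalling from receptor kinases to ERK. Spry4 ran from 443 over 527 to 726 in lactating mice and from 410.4 over 438 to 489 in virgin mice. Lactating mouse 1 was highest and 4 lactating mice lay above every virgin mouse. The log2 difference was 0.29 (SE 0.101, limma p = 0.0142, exact permutation p = 0.0173). Spry2 ran from 465 over 481 to 521 in lactating mice and from 359.8 over 432 to 484 in virgin mice. In Spry2 4 virgin mice lay below every lactating mouse, and virgin mouse 2 was lowest. The log2 difference was 0.17 (SE 0.0631, limma p = 0.0163, exact permutation p = 0.0195).

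Dusp6 encodes a phosphatase that switches ERK off, and Spred1 a Sprouty relative that restrains the cascade. Dusp6 ran from 628 over 695 to 833 in lactating mice and from 516 over 611 to 687 in virgin mice. The log2 difference was 0.19 (SE 0.0770, limma p = 0.0260, exact permutation p = 0.0368). Lactating mouse 1 was highest and virgin mouse 2 lowest, as in Spred1, and the call was lost without lactating mouse 1 (0.15), lactating mouse 4 (0.18) or virgin mouse 2 (0.15). Spred1 ran from 1602 over 1739 to 1923 in lactating mice and from 1466 over 1613 to 1706 in virgin mice, with 4 lactating mice above every virgin mouse. Its log2 difference was 0.11 (SE 0.0498, limma p = 0.0384, exact permutation p = 0.0411), and the call was lost with array weights (0.08), cyclic loess (0.09) and quantile normalization (0.09). It held only when lactating mouse 4, 5 or 6 or virgin mouse 3 or 5 was left out, and lay between 0.09 and 0.14 with any mouse left out.

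The remaining 4 ERK genes did not pass. Dusp4, another phosphatase of the cascade, had a log2 difference of 0.18 (limma p = 0.171, exact permutation p = 0.234), Spry1 0.04 and Etv4 −0.01. For Etv1 the brightest cluster gave 0.13 (limma p = 0.0578, exact permutation p = 0.0714), while a second cluster, outside the rule and named after its value was seen, gave 0.16 and passed. Lactating mouse 4, high in cortical markers, was highest in Etv1 at 1986. Averaged over the 9 genes, lactating mice lay between −0.02 and 0.23 and virgin mice between −0.20 and −0.01 log2 units around the average array. Lactating mouse 1 was highest and virgin mouse 2 lowest, and without either of them 3 ERK genes passed in place of 5. Without lactating mouse 4 the number was 4. Lactating mouse 1 was also highest in the 6 genes that BDNF is known to induce, 0.43 log2 units above the average array. The same mouse was the lowest of all in the excitatory cortical markers (−0.48) and the oligodendrocyte markers (−0.30), and lay at 0.24 in the cholinergic markers. The part of these cell type lists in the ERK differences was not tested.

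**Figure D4:**
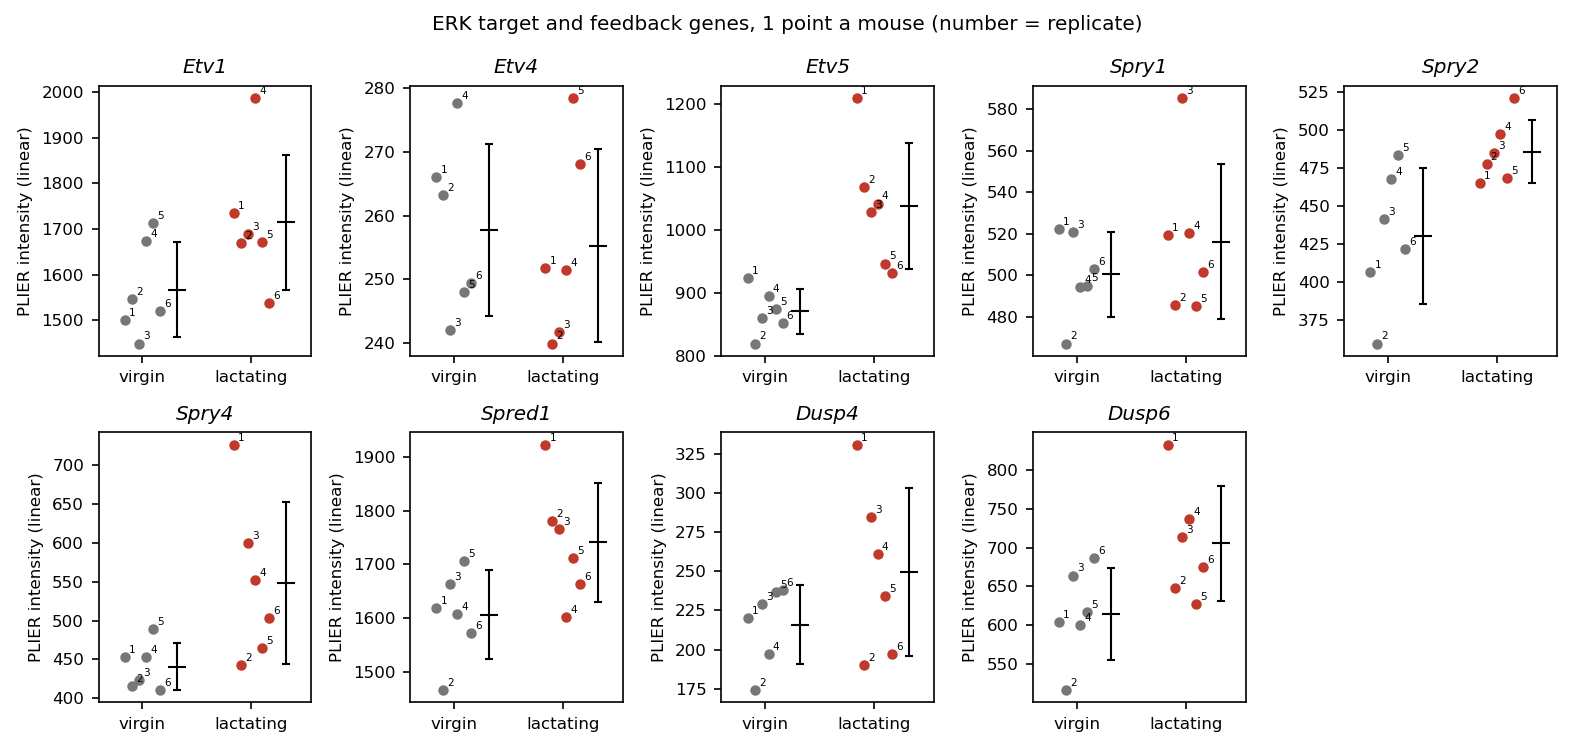
Hybridization intensity of the 9 ERK target and feedback genes, 1 panel a gene with its own axis, 1 point a mouse numbered by replicate, and a bar for the group mean with its SD (n = 6). The groups are apart for Etv5 and overlap for the other 8 genes, and lactating mouse 1 is highest in Etv5, Spry4, Spred1, Dusp4 and Dusp6.

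The other 2 calls were an adaptor and a repressor. Dok6 encodes an adaptor that binds active RET, and it was the 1 gene called among 15 measured receptor adaptors and regulators. It ran from 1075 over 1119.8 to 1172 in lactating mice and from 950.0 over 1053 to 1108 in virgin mice. Virgin mouse 2 was lowest and the groups overlapped. Its log2 difference was 0.11 (SE 0.0426, limma p = 0.0261, exact permutation p = 0.0173), and 6.75% of clusters of like brightness were also higher. The call was lost without lactating mouse 2 (0.10), 3 (0.09) or 4 (0.10) and without virgin mouse 2 (0.08). Rest, which encodes a repressor of neuronal genes that binds at Bdnf, was the 1 gene called among 4 measured regulators of Bdnf. It ran from 254 over 278 to 296 in lactating mice and from 276 over 300.0 to 318 in virgin mice, the lactating values being the lower. Its log2 difference was −0.11 (SE 0.0450, limma p = 0.0267, exact permutation p = 0.0238), and 6.70% of clusters of like brightness were also lower. The call for Rest was lost after median subtraction (−0.09), quantile normalization (−0.09) and cyclic loess (−0.08). It was also lost without lactating mouse 1 (−0.10) or 2 (−0.09) and without virgin mouse 3 (−0.10) or 6 (−0.11). Creb1, which encodes CREB, had a log2 difference of 0.06 (limma p = 0.166, exact permutation p = 0.130).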

How the data were processed

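Total RNA of the septum of 12 mice was hybridized to Affymetrix Mouse Gene 1.0 ST arrays. The deposited table holds gene-level hybridization intensity on a linear scale, which the authors corrected for background by GC content, normalized between arrays and summarised with PLIER, per the study methods; the submitters' processing notes name Affymetrix Power Tools (1.12.0). PLIER values of dim clusters vary more on a log scale, and read depth does not apply to arrays, whose number limits the precision.

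Here 16 was added to each intensity and log2 was taken, so differences of dim clusters are understated. limma (3.58.1, R 4.3.3) was fitted to all 35556 clusters over both groups without covariates, with Benjamini-Hochberg adjustment over all of them, and tested on simulated data. A call is an unadjusted two-sided p under 0.05. Single genes also had exact permutation tests of the mean log2 difference in SciPy (1.17.1). Probe genes came from the platform annotation, with the brightest cluster of a gene used in the lists, and percent differences in intervals are on the log2(intensity + 16) scale. Named by rule were the 8 genes, the called genes of the non-marker lists, Ntf5, Ngfr and Nrtn, and the 3 clusters most like each of the 7 genes measured. Dusp4, Spry1, Etv4, Etv1, Creb1, Npas4, Fos, Egr1, Arc, Vgf, Homer1, Nptx2 and the marker genes were named outside it, after their values were seen. The genes and lists were chosen with earlier results of these data known. Marker lists of septal, cholinergic, parvalbumin, excitatory cortical, striatal, glial, vascular, ependymal, choroid plexus and blood cells were measured alongside. Alternatives were another added value, linear values, 3 other scalings, a brightness filter, a variance trend, array weights, a replicate block and leaving out each mouse. The alternatives for the ERK list and the called pathway genes were added after seeing the data.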

Additional observations from a re-analysis of the deposited data

How the results depend on the processing

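The difference of Ret kept its direction and its call under all 9 alternatives, between 0.14 and 0.19 on the log2 scale, with limma p between 0.00667 and 0.0440. It ran from 0.12 to 0.20 when 1 mouse was left out, and 9 of 12 such fits kept the call. The number of members called stayed at 1 under the 9 alternatives and was 0 to 1 with a mouse left out. Etv5, Spry2 and Spry4 kept their calls under every alternative and without any one mouse, Dusp6 did so in 9 of 12, Dok6 and Rest in 8 of 12 and Spred1 in 5 of 12. The signs of the smallest differences turned, none of which passed the test. Gdnf gave 0.0150 after median subtraction, 0.0183 after cyclic loess, 0.0142 after quantile normalization and −0.0573 to 0.0237 with a mouse left out. Gfra1 gave 0.00367 after median subtraction and −0.0453 to 0.00233 with a mouse left out, Ntrk2 gave −0.000533 after cyclic loess and −0.00135 to 0.0197 with a mouse left out, and Ngfr gave −0.00855 after cyclic loess, −0.0107 after quantile normalization and −0.0227 to 0.0558 with a mouse left out. The count over all clusters was 1642 among clusters above the median intensity, a smaller set, and ran from 1864 without lactating mouse 3 to 4058 without virgin mouse 3. The count of further pathway genes ran from 5 to 9 under the alternatives, and from 4 without virgin mouse 2 to 8 without lactating mouse 6. The ERK count ran from 4 to 6 under the alternatives and from 3 to 6 with a mouse left out.

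With the replicate number as a block, Ret stayed at 0.17 with SE 0.0457, Spred1, at 0.11, missed the threshold and 3194 clusters were called. The methods state that each RNA preparation handled a lactating animal together with a matched virgin, but not that the replicate numbers mark those pairs. Same-numbered mice deviated together with a correlation above 0.1 in 2 of 6 numbers, between −0.03 and 0.25, and 4 of 12 arrays correlated best with their own number. These values do not settle whether the numbers mark the pairs, and the fit without the block was kept. The filter on brightness left no value for Bdnf, Gdnf, Ntf5 and Rest. Bdnf and Gdnf lay near or below the array median, where the spread between mice limits what can be seen.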

Other observations

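Npas4 and Fos, both switched on by neuronal activity, ranged widely within both groups, unlike Homer1 and Nptx2. Npas4, an activity-induced transcription factor gene known to bind at Bdnf, read 887, 678, 517, 555, 367 and 552 in lactating mice 1 to 6. In virgin mice 1 to 6 it read 520.4, 817, 676, 559, 465.5 and 1119. The highest reading was in virgin mouse 6 and the lowest in lactating mouse 5, with a log2 difference of −0.20 (limma p = 0.377, exact permutation p = 0.435). The coefficient of variation was 29.6% in lactating and 35.2% in virgin mice for Npas4, and 47.3% and 29.7% for Fos. It was 9.79% and 9.04% for Homer1 and 8.00% and 7.37% for Nptx2. Fos, an immediate early gene, read 429 in lactating mouse 1 and 330.5 in virgin mouse 6, its highest values in each group. Bdnf in those same mice read 256 and 255. The reading of lactating mouse 1 was the highest of its group, and among virgin mice only virgin mouse 2, at 280.2, was above virgin mouse 6. Virgin mouse 1 all but matched virgin mouse 6 in Bdnf, at 255, with Fos at 190.5, and virgin mouse 2 read 238 for Fos. Bdnf also correlated at 0.859 with the median of clusters of like brightness, and a link between Fos and Bdnf was not tested. Alas2, a heme synthesis gene that marks red blood cells, was higher in lactating mice, from 267 to 437 against 224 to 297 in virgin mice (limma p = 0.0180, exact permutation p = 0.0433). Of the 3 genes listed for blood only Alas2 was measured, since Hbb-b1 and Hba-a1 were not matched.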
